A study of Mus musculus with 172 samples.

Results

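The genes described are 10 members of the insulin and insulin-like growth factor (IGF) pathway, chosen by name: the hormone gene *Igf1*, the receptor genes *Insr* and *Igf1r*, the adaptor genes *Irs1* and *Irs2*, the binding protein genes *Igfbp1*, *Igfbp2*, *Igfbp4* and *Igfbp5*, and the transcription factor gene *Foxo1*. Of the 14896 genes listed in cortex, 9 were members, *Igfbp1* not being listed there. Of the 14107 genes listed in liver, 10 were members. The rule that chose them used no measured value, though results of these data were known when it was set.

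Insulin and IGF-1 bind 2 related receptors with tyrosine kinase activity, which phosphorylate the insulin receptor substrates Irs1 and Irs2. These adaptors recruit phosphatidylinositol 3-kinase (PI3-kinase), and Akt, activated downstream of it, phosphorylates Foxo1 and keeps it out of the nucleus. In liver, Foxo1 is known to drive *Igfbp1* and *Irs2* transcription when insulin is low. The liver makes most of the IGF-1 that circulates, and binding proteins carry it and limit its access to receptors. In brain, *Igf1r* is expressed widely and IGF-1 is also made locally.

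RNA-seq was performed on cerebral cortex and liver of adult male mice of the BXD panel, recombinant inbred lines derived from C57BL/6J (B6) and DBA/2J (D2). Mice of the SD groups were kept awake by gentle handling for the first 6 h of the light phase, from ZT0 to ZT6 (ZT, zeitgeber time, hours after light onset). Ctr mice were left undisturbed, and both were killed at ZT6. In each tissue and condition there were 39 pools, from 33 BXD/RwwJ lines, 4 parental pools (2 each of B6 and D2, collected at the start and end of the study) and the reciprocal F1 hybrids B6D2F1 and D2B6F1. Each pool held the RNA of several mice of a line, fewer for BXD79, BXD85 and BXD101, so that 1 library stood for 1 line in 1 condition. Another 4 lines, BXD05, BXD29, BXD29t and BXD32 of the BXD/TyJ panel, were sampled in the same way and entered only the alternative fit over all 43 pools. Whole tissue was used, so fewer cells of a type and less RNA per cell cannot be told apart.

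The reads assigned to the listed genes, which are fewer than the reads sequenced, summed to 18995492 to 28998853 per library in cortex and 4681101 to 8269401 in liver. These sums are the library totals used below. In cortex 7 of 7 neuronal marker genes were listed, and 2 of 6 hepatocyte markers, *Cps1* and *Ttr*, which is also among the choroid plexus markers. The hepatocyte genes *Alb*, *Apoa1*, *Cyp2e1* and *Serpina1e* were not listed there. In liver 6 of 6 hepatocyte markers were listed, and 1 of 7 neuronal markers. A total of 3 libraries lay farther than 2 times the median distance of their group from the group's median profile. They were the SD liver library of BXD70 (3.89 times), the Ctr cortex library of BXD90 (3.04 times) and the SD liver library of BXD50 (2.09 times). Changes that moved without them are given with both values.

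In liver, the reads of some members did not follow the size of the library. *Igfbp4* had 1775 to 2101 reads over 78 liver libraries, from the smallest library total (4681101) to the largest (8269401). The slope of its log2 reads on the log2 library total was 0.16 ± 0.024 (SE), where reads in proportion to the total give 1. In cortex the slopes of the 9 members were 0.80 to 1.29. Among them, the slope was 0.88 for *Igfbp5* (0.899 reads per exonic base) and 1.29 for *Igfbp4* (0.804). *Igfbp4* also had the densest coverage of the members in liver, with 0.836 reads per exonic base, and 1.63% of the listed genes were denser. The slope was 0.014 ± 0.10 for *Igfbp2* (0.570 reads per exonic base) and 0.61 ± 0.048 for *Igf1* (0.383). It was 1.64 ± 0.090 for *Insr* (0.266), 1.25 ± 0.14 for *Foxo1* (0.152) and 2.86 ± 0.36 for *Irs2* (0.0487). The order of slopes thus ran largely against the order of read density among these genes in liver. *Igfbp4* with *Igfbp2*, and *Insr* with *Foxo1*, were exceptions. The dense cortex genes above did not have flat slopes. *Igfbp1*, with a density of 0.241 and a slope of 0.67 ± 0.51, varied too much between pools to be placed. How far this bears on the liver values was examined with the log2 library total as a covariate, and results that moved are given with that value.

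**Figure D1:**
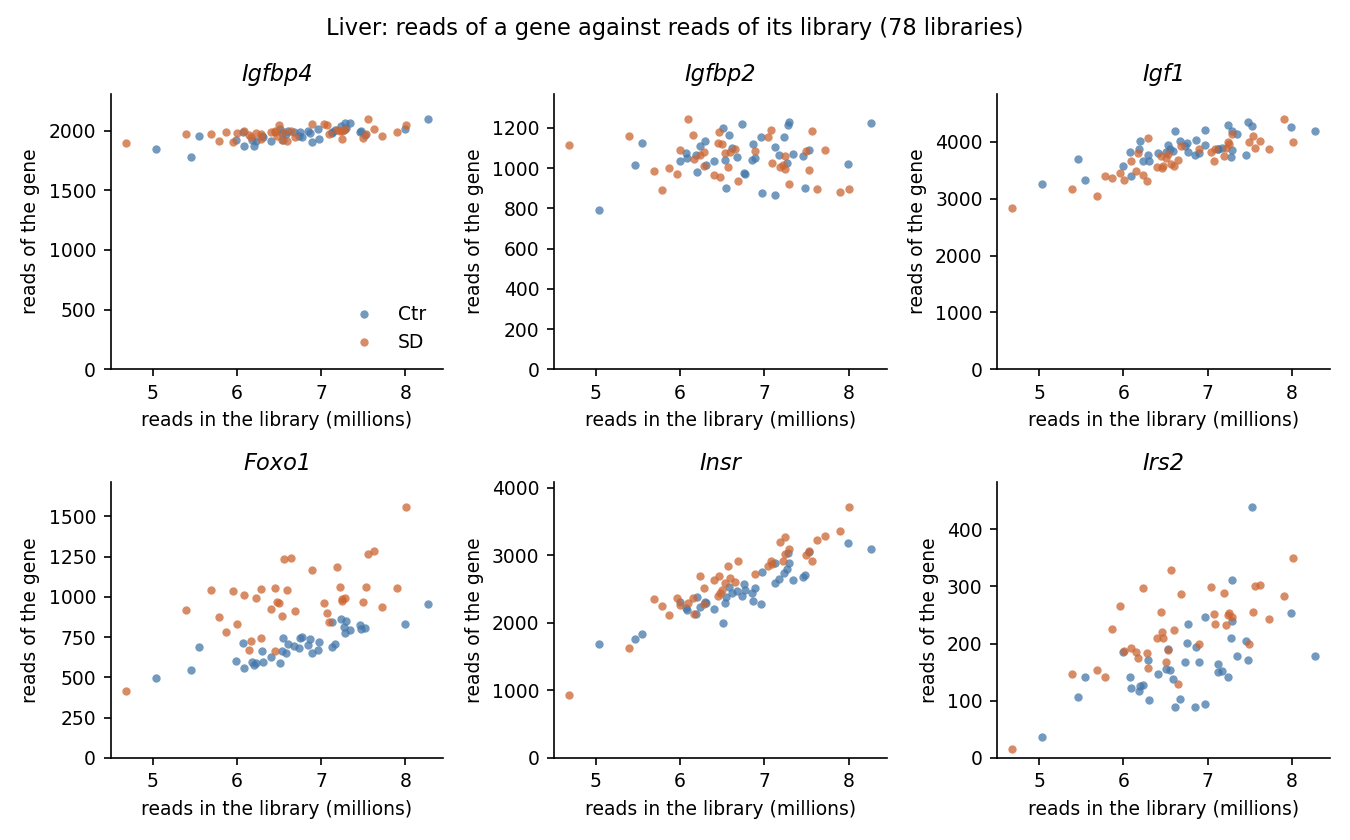
Reads of a gene (y axis, from 0) against reads in the library (x axis) in the 78 liver libraries for *Igfbp4*, *Igfbp2*, *Igf1*, *Foxo1*, *Insr* and *Irs2*, with Ctr and SD libraries marked apart. The points of *Igfbp4* lie almost flat (slope 0.16 on the log2 scale), whereas those of *Irs2* climb steeply (slope 2.86).

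The promoters of *Irs2*, *Igfbp1* and *Irs1* are shown because they held the CAAAACA element, known from insulin-responsive promoters, among the members. Promoters were taken from 250 bases before to 50 bases after the RefSeq start (RefSeq on GRCm38, placed on mm9 by exact match) and were found for 9 members, not for *Insr*. Capitals mark the matches to the searched motifs, on either strand, and the sequences run 5′ to 3′ on the strand of the gene. *Irs2* (chr8:11008880-11009179, minus strand), *Igfbp1* (chr11:7097540-7097839, plus strand) and *Irs1* (chr1:82287965-82288264, minus strand) read:
Irs2: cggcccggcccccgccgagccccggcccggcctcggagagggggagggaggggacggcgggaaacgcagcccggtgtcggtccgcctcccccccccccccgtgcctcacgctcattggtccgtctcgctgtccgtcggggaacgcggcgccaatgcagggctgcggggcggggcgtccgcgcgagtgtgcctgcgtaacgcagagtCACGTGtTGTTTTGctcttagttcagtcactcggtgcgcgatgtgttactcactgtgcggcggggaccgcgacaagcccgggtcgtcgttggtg
Igfbp1: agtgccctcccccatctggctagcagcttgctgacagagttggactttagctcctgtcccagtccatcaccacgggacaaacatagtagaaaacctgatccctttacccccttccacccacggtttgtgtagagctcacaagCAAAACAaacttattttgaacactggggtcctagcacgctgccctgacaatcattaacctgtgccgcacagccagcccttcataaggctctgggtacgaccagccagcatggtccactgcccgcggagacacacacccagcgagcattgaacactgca
Irs1: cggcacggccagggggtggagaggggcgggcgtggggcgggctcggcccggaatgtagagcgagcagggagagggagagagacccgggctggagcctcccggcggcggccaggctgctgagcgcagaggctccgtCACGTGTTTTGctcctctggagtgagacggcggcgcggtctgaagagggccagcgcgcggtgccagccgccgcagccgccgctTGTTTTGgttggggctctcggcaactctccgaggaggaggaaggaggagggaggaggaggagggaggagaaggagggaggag

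CAAAACA, or its reverse complement TGTTTTG, was found once in *Irs2*, its first base at −37 from the start, once in *Igfbp1* (−108), and at 2 places in *Irs1* (−111 and −32). Of 32544 promoters of the same length, 6.32% held it. The E-box CACGTG, the site known for basic helix-loop-helix factors such as the clock proteins, was found in *Irs2* (−44), *Irs1* (−115, where it overlaps the CAAAACA match) and a promoter of *Igfbp2* (−142), against 7.17% of all promoters. GTAAACA, the form searched as the FoxO motif (3.66% of promoters), and the cAMP response half-site TGACGT (7.55%) were not found in any of the 9 members' windows. FoxO sites that differ from GTAAACA were not searched under that name, so their absence is not shown. *Irs2* and *Irs1* were thus the members with both CAAAACA and CACGTG, close to each other.

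Per kilobase of exon (GENCODE models, which are shorter than others for *Igf1r*, 4.476 kb, and *Irs2*, 4.024 kb), the binding proteins led in cortex. The places of *Igf1r* and *Irs2* in the order depend on those lengths. In Ctr, the mean was 43.6 ± 4.7 CPM per kb (CPM, reads scaled to the size of the library; SD, n = 39) for *Igfbp5* and 32.4 ± 5.7 for *Igfbp4*. *Igf1r* followed with 23.8 ± 1.6 and *Igfbp2* with 17.7 ± 2.8. *Insr* (8.89 ± 0.50) and *Irs2* (8.83 ± 1.3) could not be ordered, *Insr* being higher in 22 of 39 pools. *Foxo1* (4.66 ± 0.33), *Irs1* (2.88 ± 0.22) and *Igf1* (1.28 ± 0.14) closed the order, each above the next in 39 of 39 pools. After SD, *Irs2* reached 17.8 ± 2.4, next to *Igfbp2*, which was higher in 20 of 39 pools, and *Igfbp4* stood above *Igfbp5* in 24 of 39.

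In liver, *Igfbp4* led with 124 ± 13 CPM per kb in Ctr, followed by *Igfbp2* (85.6 ± 11), *Igf1* (58.4 ± 4.8) and *Insr* (37.7 ± 2.5). The first 3 were the members whose reads followed the library total least. *Igfbp1* had 27.6 ± 12, above *Foxo1* (18.8 ± 1.6) in 29 of 39 pools. *Igfbp5* (10.02 ± 2.7), *Irs1* (7.47 ± 1.0) and *Irs2* (6.08 ± 2.2) followed, and *Igf1r* was lowest with 1.68 ± 0.37. On these lengths the receptors took opposite places, *Igf1r* above *Insr* in cortex and *Insr* above *Igf1r* in liver, within each tissue's own scale. Without division by length, the Ctr means in cortex were 106 CPM for *Igf1r* and 85.9 for *Insr*. In liver they were 7.53 and 365. A longer model of *Igf1r* would lower its values per kb, so its place above *Insr* in cortex is not settled by them.

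**Figure D2:**
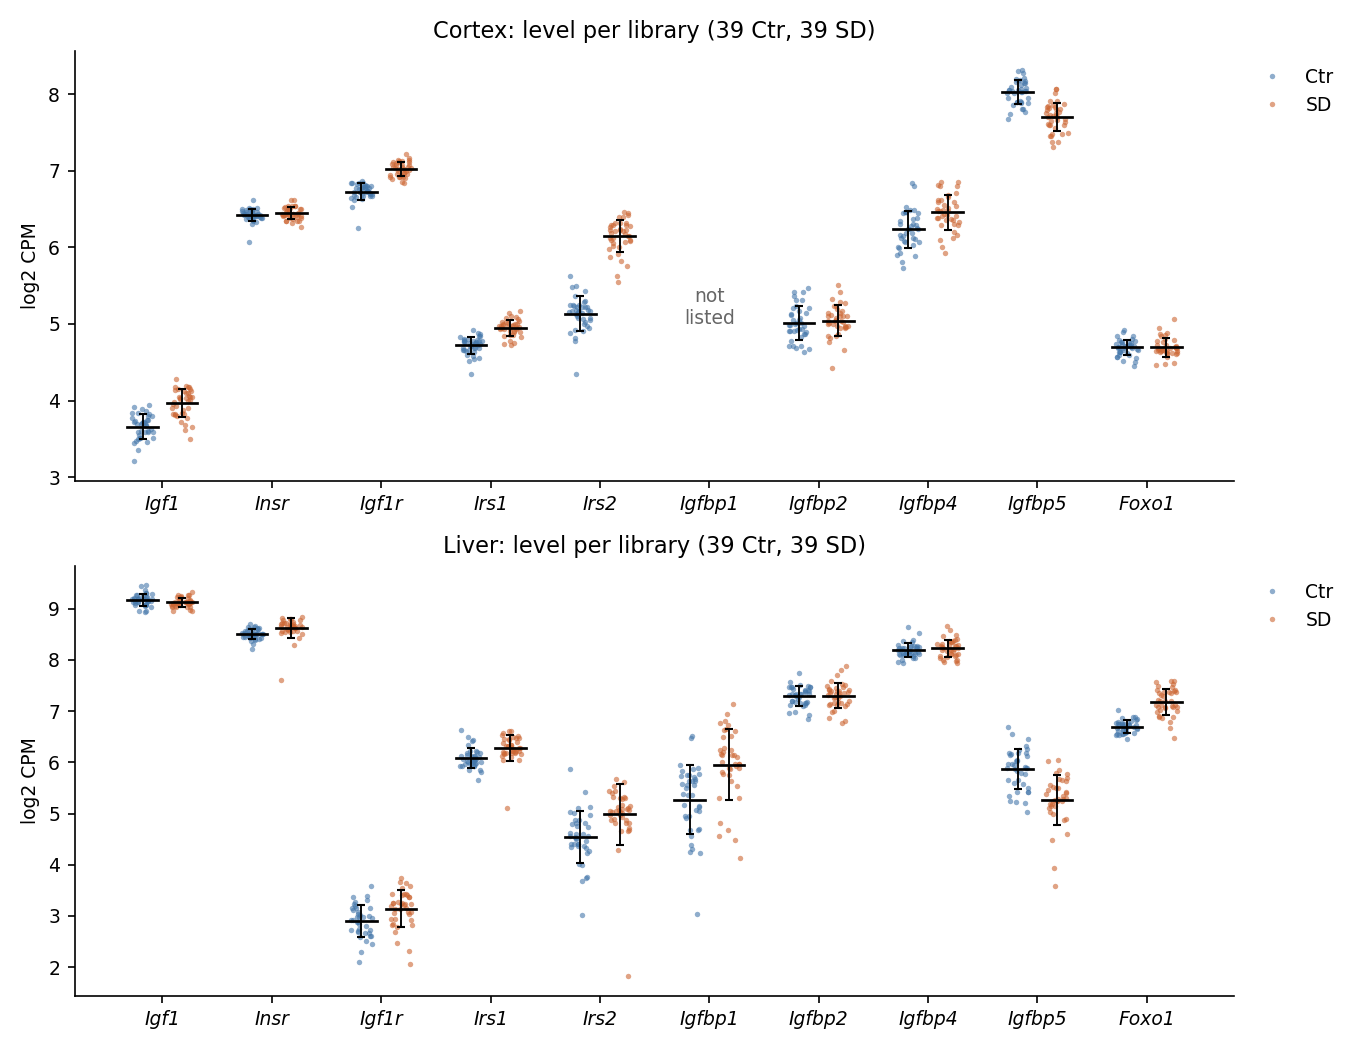
Level of each member (y axis, log2 CPM) in the 39 Ctr and 39 SD pools of cortex and liver, each point a library, with the mean and SD as bars. *Irs2* and *Igf1r* in cortex and *Foxo1* in liver show SD points mostly above the Ctr points (37, 37 and 30 of 39 above every Ctr library), and the ranges of the 2 conditions overlap for every member.

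With SD, 5 of 9 members rose in cortex, 1 fell and 3 did not pass the test (limma, Benjamini-Hochberg adjusted p under 0.05 over all listed genes). In liver, 6 of 10 rose, 1 fell and 3 did not pass. SD changed much of the transcriptome, since 68.4% of all genes in cortex and 44.2% in liver passed the same test, so being called was not unusual in itself. Of all genes, 33.0% rose and 35.4% fell in cortex, and 21.5% rose and 22.6% fell in liver. The median log2 fold change was 0.22 for the members listed in cortex against −0.0097 for all genes, and 0.16 against −0.0015 in liver. The Ctr and SD ranges overlapped for every member in both tissues, whereas they did not for 1.40% of genes in cortex and 0.121% in liver.

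*Igf1* (chr10:87321010-87399792) encodes IGF-1. In cortex its level ranged from 3.21 to 3.94 log2 CPM in Ctr (median 3.69) and from 3.501 to 4.28 in SD (median 4.00), so that the groups overlapped, with 23 SD libraries above every Ctr library. The log2 fold change was 0.30 ± 0.038 (SE; 1.23-fold, adjusted p = 4.90e-11), the SD library being the higher in 37 of 39 pools. In liver it ranged from 8.94 to 9.46 in Ctr (median 9.18) and from 8.95 to 9.33 in SD (median 9.12). The liver change of −0.049 ± 0.024 did not pass the test (adjusted p = 0.0845), and 26 of 39 pools were lower. It passed when lines were taken as a replicate block (adjusted p = 0.0242), and also with the library total as a covariate (−0.058, adjusted p = 6.11e-04). The responses of the tissues differed, the liver change being lower by 0.35 ± 0.033 on the log2 scale (adjusted p = 3.04e-12), with 2 of 39 pools higher in liver. The slope of *Igf1* reads on the library total was 0.61 in liver and 0.92 in cortex. The part of these slopes in the tissue difference was not tested. Among the 12695 genes tested for this difference, 57.6% passed, 28% being higher in liver and 29.6% lower.

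*Insr* (chr8:3150922-3279617) encodes the insulin receptor. In cortex its level was 6.06 to 6.62 in Ctr (median 6.43) and 6.27 to 6.62 in SD (median 6.43). The change of 0.023 ± 0.018 did not pass (adjusted p = 0.272), and was 0.013 without BXD90. In liver the level was 8.21 to 8.71 in Ctr (median 8.51) and 7.62 to 8.85 in SD (median 8.65), the lowest SD value being the library of BXD70. *Insr* rose in liver by 0.12 ± 0.035 (1.08-fold, adjusted p = 0.00445), in 34 of 39 pools, and by 0.15 (adjusted p = 4.56e-08) without the libraries that stood apart. It did not pass over the 33 BXD/RwwJ lines alone (0.095, adjusted p = 0.0508). The liver response exceeded that of cortex by 0.093 ± 0.035 (adjusted p = 0.0194), a call that was also lost over the 33 lines (0.074, adjusted p = 0.104).

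*Igf1r* (chr7:75097713-75371484) encodes the IGF-1 receptor. In cortex it ranged from 6.26 to 6.86 in Ctr (median 6.74) and from 6.85 to 7.21 in SD (median 7.03), and 37 SD libraries exceeded every Ctr library. It rose by 0.29 ± 0.022 (1.23-fold, adjusted p = 1.62e-20) in 39 of 39 pools, with BXD55 close to no change (0.0035) and BXD90 at the top (0.79). In liver it had few reads, a mean of 51.6 in Ctr and 60.0 in SD libraries. Its liver level was 2.11 to 3.59 in Ctr (median 2.93) and 2.06 to 3.74 in SD (median 3.22). It rose there by 0.23 ± 0.077 (1.18-fold, adjusted p = 0.00944) in 27 of 39 pools. Over the 5 genes of liver sinusoidal endothelium, 3 rose and none fell (median log2 fold change 0.17), and their summed level was 190 to 495 CPM in Ctr and 232 to 535 in SD. Their part in the *Igf1r* change was not tested. The difference between the tissues, −0.061 ± 0.066, did not pass (adjusted p = 0.443).

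*Irs1* (chr1:82229676-82287991) encodes an adaptor of both receptors. Cortex levels were 4.35 to 4.92 in Ctr (median 4.74) and 4.73 to 5.17 in SD (median 4.97), with 27 SD libraries above every Ctr library. It rose by 0.23 ± 0.024 (1.18-fold, adjusted p = 4.73e-14) in 36 of 39 pools. In liver it was 5.66 to 6.64 in Ctr (median 6.07) and 5.10 to 6.61 in SD (median 6.28), and rose by 0.20 ± 0.049 (1.15-fold, adjusted p = 5.39e-04) in 33 of 39 pools. The difference between the tissues, −0.036 ± 0.057, did not pass (adjusted p = 0.609).

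*Irs2* (chr8:10986980-11008458), the other main adaptor, had the largest change of the members in cortex. It ranged there from 4.35 to 5.63 in Ctr (median 5.16) and from 5.55 to 6.47 in SD (median 6.19), with 37 SD libraries above every Ctr library. It rose by 1.01 ± 0.048 (2.01-fold, adjusted p = 3.14e-32) in 39 of 39 pools, from 0.38 in BXD89 to 1.79 in BXD90. The Ctr library of BXD90 stood apart and gave the lowest Ctr level of *Irs2* (4.35), and without that pool the rise was 0.99. In liver *Irs2* varied far more between pools, from 3.03 to 5.87 in Ctr (median 4.55) and from 1.83 to 5.67 in SD (median 5.06). It rose there by 0.45 ± 0.12 (1.37-fold, adjusted p = 0.00150) in 34 of 39 pools, from −2.52 in BXD70 to 2.65 in D2B6F1. Without the libraries that stood apart, the liver rise was 0.54 (adjusted p = 1.71e-06). D2B6F1 had the lowest Ctr and the highest SD level, and BXD70, with 16 reads, the lowest SD level. The Ctr library of D2B6F1 had the smallest total of the Ctr liver libraries (5034166) and 37 *Irs2* reads. Without D2B6F1 the liver rise was 0.39. The liver response was smaller than that of cortex by 0.56 ± 0.12 (adjusted p = 1.23e-04), in 31 of 39 pools.

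*Igfbp1* (chr11:7097785-7102549), a binding protein made by liver and known to be repressed by insulin, was listed in liver alone. It had the largest liver rise of the members. The level ran from 3.04 in D2 pool 2 to 6.52 in BXD50 in Ctr (median 5.37), and from 4.13 in BXD101 to 7.15 in BXD50 in SD (median 6.02). It rose by 0.69 ± 0.15 (1.61-fold, adjusted p = 9.36e-05) in 29 of 39 pools. The changes of single pools had an SD of 0.91 and extended from −1.64 in BXD101 to 2.72 in D2 pool 2, so a rise over the panel went with lower values in 10 pools. The change was 0.68 without the libraries that stood apart.

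*Igfbp2* (chr1:72871077-72899048) encodes a binding protein abundant in liver and, in brain, in choroid plexus and meninges. In cortex it was 4.63 to 5.47 in Ctr (median 4.99) and 4.42 to 5.51 in SD (median 5.04), a change of 0.029 ± 0.047 that did not pass (adjusted p = 0.592). BXD90 stood below the other pools with −0.89, the next lowest being BXD73b with −0.26. Without BXD90 the cortex change was 0.054 (adjusted p = 0.285). Of 8 choroid plexus markers 5 were listed in cortex (*Folr1*, *Otx2* and *Cldn2* were not), with 1 rising and none falling, and their sum was 8.99 to 242 CPM in Ctr and 9.31 to 419 in SD. In liver *Igfbp2* was 6.85 to 7.74 in Ctr (median 7.33) and 6.77 to 7.89 in SD (median 7.34), and the change of 0.0098 ± 0.048 did not pass (adjusted p = 0.893).

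*Igfbp4* (chr11:98902558-98913969) encodes a binding protein that restrains IGF-1. In cortex it ranged from 5.73 to 6.84 in Ctr (median 6.25) and from 5.92 to 6.85 in SD (median 6.47), with wide overlap. It rose by 0.22 ± 0.052 (1.17-fold, adjusted p = 1.19e-04) in 33 of 39 pools. In liver it was 7.94 to 8.64 in Ctr (median 8.17) and 7.94 to 8.65 in SD (median 8.23), a change of 0.037 ± 0.035 that did not pass (adjusted p = 0.418). With the library total as a covariate, the liver value was 0.021 and passed (adjusted p = 0.0442). The response in liver was lower than in cortex by 0.19 ± 0.039 (adjusted p = 8.03e-05), in 34 of 39 pools. The slope of *Igfbp4* reads on the library total was 0.16 in liver and 1.29 in cortex. The part of these slopes in the tissue difference was not tested.

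*Igfbp5* (chr1:72904506-72921458), whose protein is held in the extracellular matrix, was the member that fell in both tissues. In cortex it was 7.68 to 8.31 in Ctr (median 8.04) and 7.31 to 8.07 in SD (median 7.72), with 17 SD libraries below every Ctr library. It fell by 0.32 on the log2 scale (SE 0.038, 0.799-fold, adjusted p = 4.02e-12), lower in 38 of 39 pools. In liver it was 5.04 to 6.70 in Ctr (median 5.89) and 3.59 to 6.04 in SD (median 5.28). It fell there by 0.59 (SE 0.098, 0.662-fold, adjusted p = 3.92e-07), lower in 35 of 39 pools, with BXD55 (−1.98) and BXD70 (−1.92) lowest. The liver fall was the larger by 0.27 ± 0.086 (adjusted p = 0.00685), in 29 of 39 pools. Of 8 meningeal markers in cortex, 7 fell and none rose (median log2 fold change −0.26), with a sum of 68.9 to 137 CPM in Ctr and 59.2 to 101 in SD. Of 5 stellate cell markers in liver, 1 rose and 1 fell, with a sum of 375 to 677 CPM in Ctr and 388 to 682 in SD. The part of these cells in the *Igfbp5* values was not tested.

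*Foxo1* (chr3:52072259-52154031) encodes the transcription factor held out of the nucleus by insulin. In cortex its level was 4.45 to 4.92 in Ctr (median 4.70) and 4.46 to 5.06 in SD (median 4.68), and the change of 0.0030 ± 0.026 did not pass (adjusted p = 0.926), its sign turning under other settings. In liver it was 6.46 to 7.03 in Ctr (median 6.70) and 6.47 to 7.59 in SD (median 7.20), with 30 SD libraries above every Ctr library. It rose there by 0.48 ± 0.045 (1.40-fold, adjusted p = 1.82e-15) in 37 of 39 pools, from −0.058 in BXD70 to 0.95 in BXD95. The response in liver exceeded that in cortex by 0.48 ± 0.040 (adjusted p = 6.85e-14), in 38 of 39 pools. Together with *Igf1*, this was the clearest difference between the tissues among the members. For *Igf1*, the liver reads followed the library total only in part (slope 0.61), as given above.

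**Figure D3:**
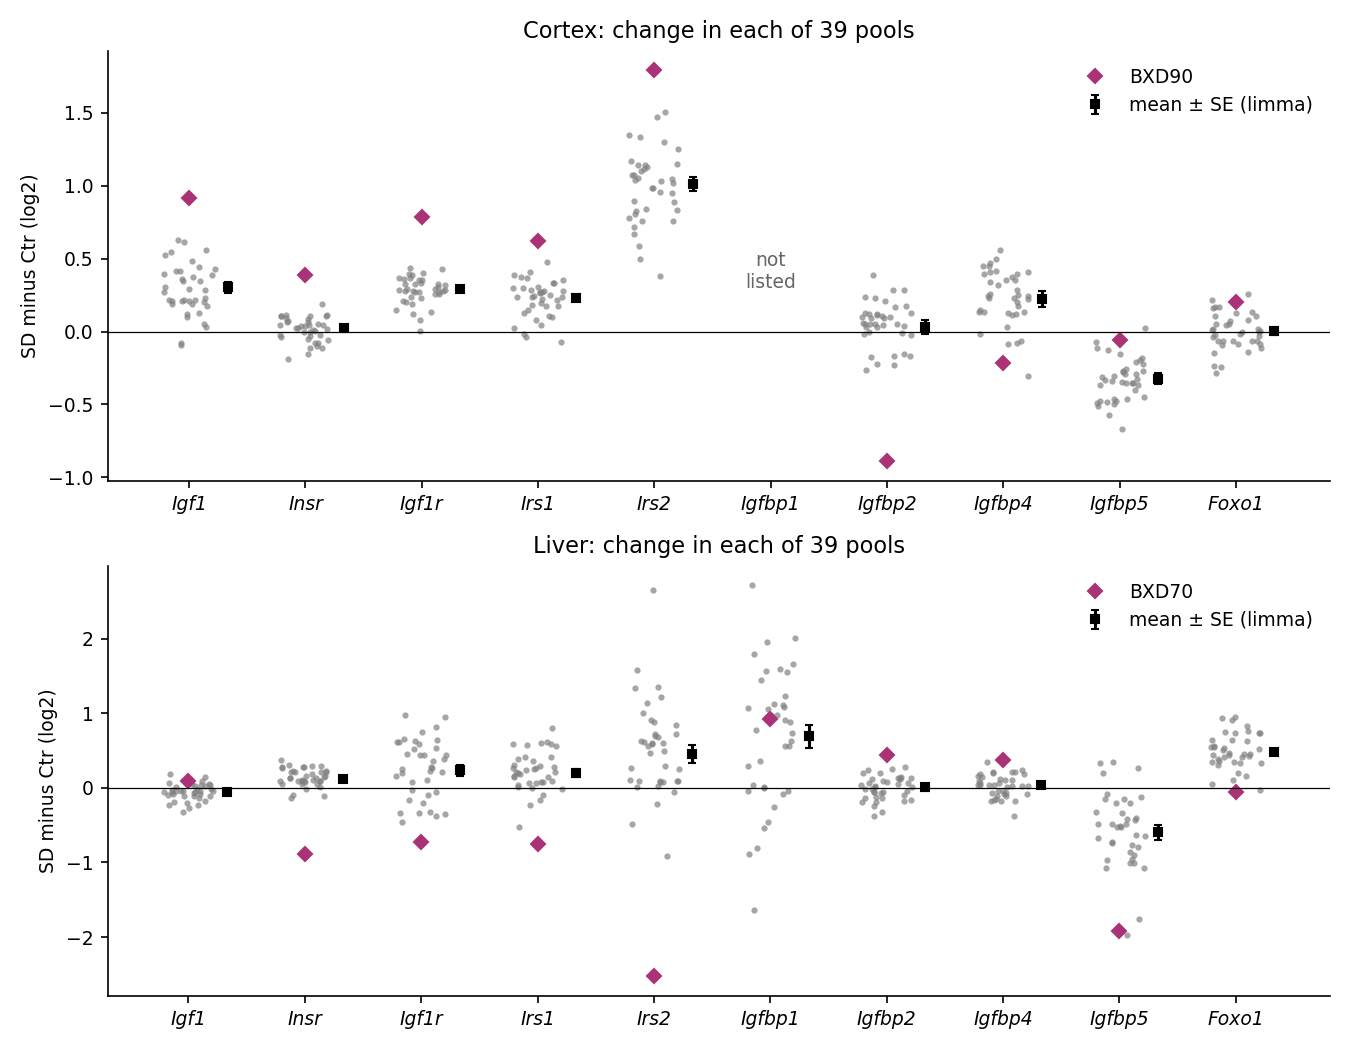
Change of each member with SD (y axis, SD minus Ctr in log2 units) in the 39 pools of cortex and liver, each point a pool, with limma's mean and SE beside them, BXD90 marked in cortex and BXD70 in liver. *Irs2* in cortex lies above 0 in 39 of 39 pools, *Foxo1* in liver in 37, and *Igfbp1* and *Irs2* in liver spread from below −1.6 to above 2.6.

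Of 74 other genes of the pathway, 68 were listed in cortex, of which 24 rose, 21 fell and 23 did not pass. In liver 67 were listed, of which 20 rose, 13 fell and 34 did not pass. Their median log2 fold change was 0.0082 in cortex and 0.037 in liver. By the same test, 33.0% of all genes rose and 35.4% fell in cortex, and 21.5% rose and 22.6% fell in liver. Being called was thus not unusual in itself for these genes or for the lists below. Neither *Ins1* nor *Ins2*, the insulin genes, was listed in either tissue.

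Among the hormones and receptors, *Igf2* (−0.14, adjusted p = 0.00652) and *Igf2r*, the receptor that clears IGF-2 (−0.10, adjusted p = 2.23e-05), fell in cortex, and neither passed in liver. The meningeal markers above moved in the same direction as *Igf2*, whereas of the 5 choroid plexus markers listed, 1 rose and none fell. The part of these cells in the *Igf2* change was not tested. Of 6 binding and processing genes in cortex, 4 rose and none fell, *Htra1*, a secreted protease, by 0.57 in 39 of 39 pools, *Igfbp3* by 0.17 and *Pappa*, which cleaves Igfbp4, by 0.59 at a mean of 15.9 reads. Of 5 in liver, 1 rose, *Igfals* (0.083, adjusted p = 0.0302), which binds IGF-1 in a ternary complex in blood. Its call was lost without BXD70 (0.071, adjusted p = 0.0503) and, just over the threshold, without BXD71.

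Of 10 adaptors in each tissue, 3 rose and 2 fell in cortex, and 4 rose and 2 fell in liver. *Grb10*, an inhibitory adaptor of both receptors, fell in cortex by 0.32 in 39 of 39 pools, and rose in liver (0.37, adjusted p = 8.94e-04, 27 of 39 pools). The difference of its responses, liver minus cortex, was 0.69 ± 0.091 (adjusted p = 1.69e-08), with 33 of 39 pools higher in liver. *Sh2b1* (0.21) and *Grb2* (0.12) rose in cortex, *Sh2b2* rose in liver (0.59, at a mean of 49.7 reads) and *Shc1* fell there (−0.15). Of 16 kinase genes, 5 rose and 5 fell in cortex and 4 rose and 2 fell in liver. *Rheb*, the activator of mTOR (0.33), *Akt2* (0.24) and *Pik3ca* (0.16) rose in cortex. *Pik3ca* (0.15) and *Pdpk1* (0.14) rose in liver, and *Mtor* fell there (−0.17).

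Of 14 inhibitors, 3 rose and 6 fell in cortex, and 4 rose and 4 fell in liver. *Ptpn1*, the phosphatase that removes phosphate from the insulin receptor, rose in cortex by 0.49 in 39 of 39 pools (adjusted p = 5.64e-35). *Ddit4*, which restrains mTOR, rose in cortex (0.49) and liver (0.68). *Socs1* rose in cortex (0.40) at a mean of 15.1 reads, and *Enpp1* (−0.23) and *Pik3ip1* (−0.37, at 13.4 reads) fell in liver. Inhibitors were thus among the genes that moved in both directions in each tissue.

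All 3 other FoxO genes passed in cortex, *Foxo6* (0.23) and *Foxo4* (0.15) rising. *Foxo3* fell by 0.092 (adjusted p = 0.0414), a call that was lost with all 43 pools (adjusted p = 0.0751), with the 33 BXD/RwwJ lines (0.126) and without the pools with fewer mice (0.0818). With 1 pool left out in turn, the *Foxo3* call was kept in 20 of 39 fits (−0.12 without BXD90 to −0.084 without BXD43, adjusted p up to 0.0671). In liver *Foxo4* rose (0.16). Of the insulin- and FoxO-responsive genes, 5 of 10 rose and 3 fell in cortex, and 5 of 12 rose and 4 fell in liver. In liver *Srebf1*, the lipogenic factor induced by insulin, fell by 0.63 in 39 of 39 pools, *Pdk4*, a FoxO target known from fasting, fell by 0.95 in 37 of 39, and *Bcl6* rose (0.46). In cortex *Bcl6* rose (0.51) and *Eif4ebp1* fell (−0.47).

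Growth hormone drives *Igf1* in liver through its receptor, Jak2 and Stat5b. Of 6 genes of this arm, 1 rose and 1 fell in liver. *Socs2*, a feedback inhibitor induced by growth hormone, rose by 1.11 (adjusted p = 2.13e-13) in 37 of 39 pools, and *Stat5b* fell by 0.090. In cortex *Jak2* rose by 0.48 in 39 of 39 pools (adjusted p = 3.22e-36), and *Ghr*, the receptor (−0.25), and *Socs2* (−0.25) fell.

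The parental strains, with 2 pools each in Ctr and SD, gave the spread within a strain and the difference D2 minus B6 (8 libraries per tissue, limma with condition in the fit). In cortex 4 of 9 members differed, against 25.5% of all genes (11.6% higher and 13.9% lower in D2). *Igfbp2* was higher in D2 (5.31 and 5.17 in Ctr, 5.42 and 5.15 in SD) than in B6 (4.99 and 4.77 in Ctr, 4.82 and 4.87 in SD), by 0.40 ± 0.068 (adjusted p = 4.24e-04). *Igfbp4* was lower in D2 (6.11 and 5.93 in Ctr, 6.35 and 6.38 in SD) than in B6 (6.53 and 6.47 in Ctr, 6.51 and 6.81 in SD), by −0.38 ± 0.064 (adjusted p = 3.61e-04). For both genes the libraries of the strains did not overlap. *Irs1* (0.21 ± 0.061, adjusted p = 0.0195) and *Igfbp5* (0.21 ± 0.055, adjusted p = 0.0106) were higher in D2. Both calls were lost when either of 2 pools was left out, at 0.12 and 0.17 without B6 pool 1 and D2 pool 2 for *Irs1*, and 0.10 and 0.20 without B6 pool 1 and D2 pool 1 for *Igfbp5*.

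In liver no member passed in D2 against B6 (17.9% of all genes did, 8.42% higher and 9.47% lower in D2), by limma at an adjusted p under 0.05, while 4 of 10 had an unadjusted p under that value. *Igfbp1* in Ctr was 5.84 and 5.57 in the B6 pools and 4.32 and 3.04 in the D2 pools, and in SD it was 5.87 and 5.53 in B6 and 5.77 and 5.76 in D2. The strains thus lay apart in Ctr and close together after SD. The difference over both conditions was −0.98 ± 0.35 (adjusted p = 0.0685), and in the Ctr libraries alone −2.02 ± 0.33 (adjusted p = 0.00378). The change with SD was 0.032 and −0.038 in the B6 pools, 1.45 and 2.72 in the D2 pools, 1.55 in B6D2F1 and 2.01 in D2B6F1. With 2 pools per strain, this difference in change was not tested. *Foxo1* in liver changed by 0.34 and 0.44 in B6, 0.45 and 0.93 in D2, and 0.75 and 0.84 in the F1 hybrids, positive in each. The Ctr liver library of D2B6F1 was the smallest in Ctr. It lay 1.94 times the median distance of its group from the group's median profile, just under the cut of 2. The *Irs2* change in liver varied as much within strains (0.094 and 0.73 in B6, 0.089 and 1.13 in D2) as between them. *Igfbp2* in liver changed by −0.33 and −0.38 in B6 and by 0.20 and 0.29 in D2, and *Igfbp4* by −0.18 and −0.18 in B6 and by 0.21 and 0.34 in D2, both being genes whose reads hardly followed the library total.

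**Figure D4:**
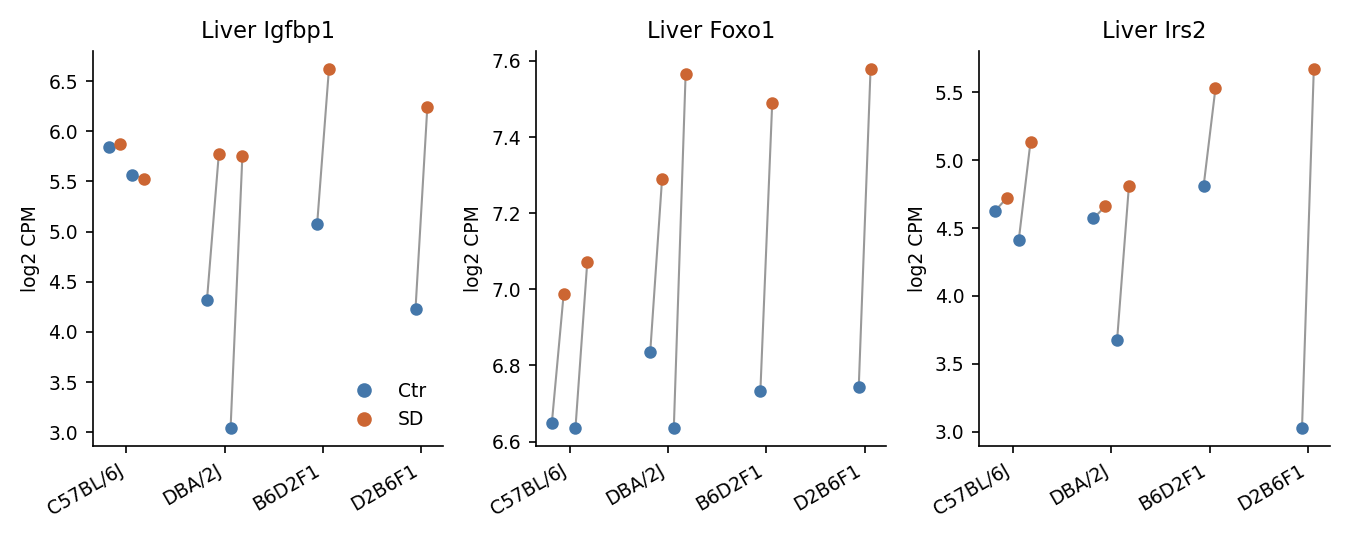
Liver level (y axis, log2 CPM) of *Igfbp1*, *Foxo1* and *Irs2* in the 2 pools of C57BL/6J, the 2 pools of DBA/2J and the F1 hybrids (x axis), a line joining the Ctr and SD libraries of a pool. *Igfbp1* is flat in B6 (0.032 and −0.038) and climbs in D2 and the hybrids (1.45 to 2.72), whereas *Foxo1* climbs in each pool.

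The 4 BXD/TyJ lines, which the main tests did not use, gave the same signs for most calls. BXD29 and BXD29t, which share a number in the labels, were counted as separate lines. In cortex *Irs2* was higher in 4 of 4 lines (0.91 to 1.71), as were *Igf1r* (0.25 to 0.78), *Igf1* (0.12 to 0.77), *Irs1* (0.12 to 0.57) and *Igfbp4* (0.067 to 0.33), and *Igfbp5* was lower in 4 of 4 (−0.44 to −0.14). In liver *Foxo1* (0.36 to 0.87), *Igfbp1* (0.36 to 2.03) and *Igf1r* (0.26 to 0.69) were higher in 4 of 4. *Irs2* (−0.019 to 1.18), *Insr* (−0.0071 to 0.22) and *Irs1* (−0.0058 to 0.59) were higher in 3 of 4, and *Igfbp5* (−1.87 to 0.21) was lower in 3 of 4.

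Whether a line's level in Ctr went with its level in SD was examined over the 33 BXD/RwwJ lines, as part of 109 relations tested by two-sided permutation (100000 resamples) and adjusted together, of which 28 passed. Both values of a line share its genotype and not its mice. Lines that share a number in the labels (BXD48 and BXD48a, BXD65 and BXD65a, BXD73 and BXD73b) were permuted as separate lines. In cortex *Igfbp4* kept its order (r = 0.65, permutation p = 4e-05, adjusted p = 0.00109; rho = 0.72, permutation p = 1e-05, the smallest that the resamples can give), with r = 0.73 without the 2 lines farthest out on the Ctr level. *Igfbp5* did likewise (r = 0.59, permutation p = 3e-04, adjusted p = 0.00409; rho = 0.56, permutation p = 8.3e-04; r = 0.57 without 2 lines). *Igfbp2* gave r = 0.46 in cortex (permutation p = 0.00705, adjusted p = 0.0307; rho = 0.58, permutation p = 4.4e-04), with r = 0.33 without 2 lines and 0.75 without the 3 lines whose libraries stood apart. These 3 binding protein genes were the cortex members for which the relation passed. *Irs2* gave r = 0.15 in cortex and 0.060 in liver, neither past the threshold.

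In liver *Igfbp2* (r = 0.82, permutation p = 1e-05, adjusted p = 5.45e-04; rho = 0.75, permutation p = 1e-05; r = 0.79 without 2 lines) and *Igfbp4* (r = 0.64, permutation p = 8e-05, adjusted p = 0.00145; rho = 0.61, permutation p = 1.9e-04; r = 0.54 without 2 lines) kept their order. As residuals on the log2 library total these were 0.66 and 0.46, and both still passed. *Igf1* gave r = 0.45 (permutation p = 0.00882, adjusted p = 0.037; rho = 0.39, permutation p = 0.0262), which was 0.30 without 2 lines and 0.095 as residuals, where it no longer passed.

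The change of a member in cortex did not pass a test of relation with its change in liver for any of 9 members (permutation, r from −0.42 for *Igfbp2* to 0.31 for *Foxo1*). In cortex, 9 of 36 pairs of members passed for their changes with SD, and 1 without the 3 lines that stood apart. That pair was *Insr* and *Igf1r* (r = 0.76, permutation p = 3e-05, adjusted p = 0.00109; rho = 0.51, permutation p = 0.00309; r = 0.57 without 2 lines, and 0.58 without the 3). In liver, 13 of 45 pairs passed, and 2 without the 3 lines. They were *Insr* and *Foxo1* (r = 0.58, permutation p = 7e-05, adjusted p = 0.00145; rho = 0.52, permutation p = 0.00228; r = 0.55 without 2 lines, and 0.54 without the 3) and *Igfbp2* with *Igfbp4* (r = 0.87, permutation p = 1e-05, adjusted p = 5.45e-04; rho = 0.83, permutation p = 1e-05; r = 0.82 without 2 lines, and 0.81 without the 3). The last was 0.55 as residuals on the change of the log2 library total. *Insr* and *Irs2* in liver gave r = 0.72 (permutation p = 5.4e-04, adjusted p = 0.00654; rho = 0.31, permutation p = 0.0767), which fell to 0.28 without 2 lines and 0.30 without the 3, so that it rested on them. The members of a pair were read in the same libraries.

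**Figure D5:**
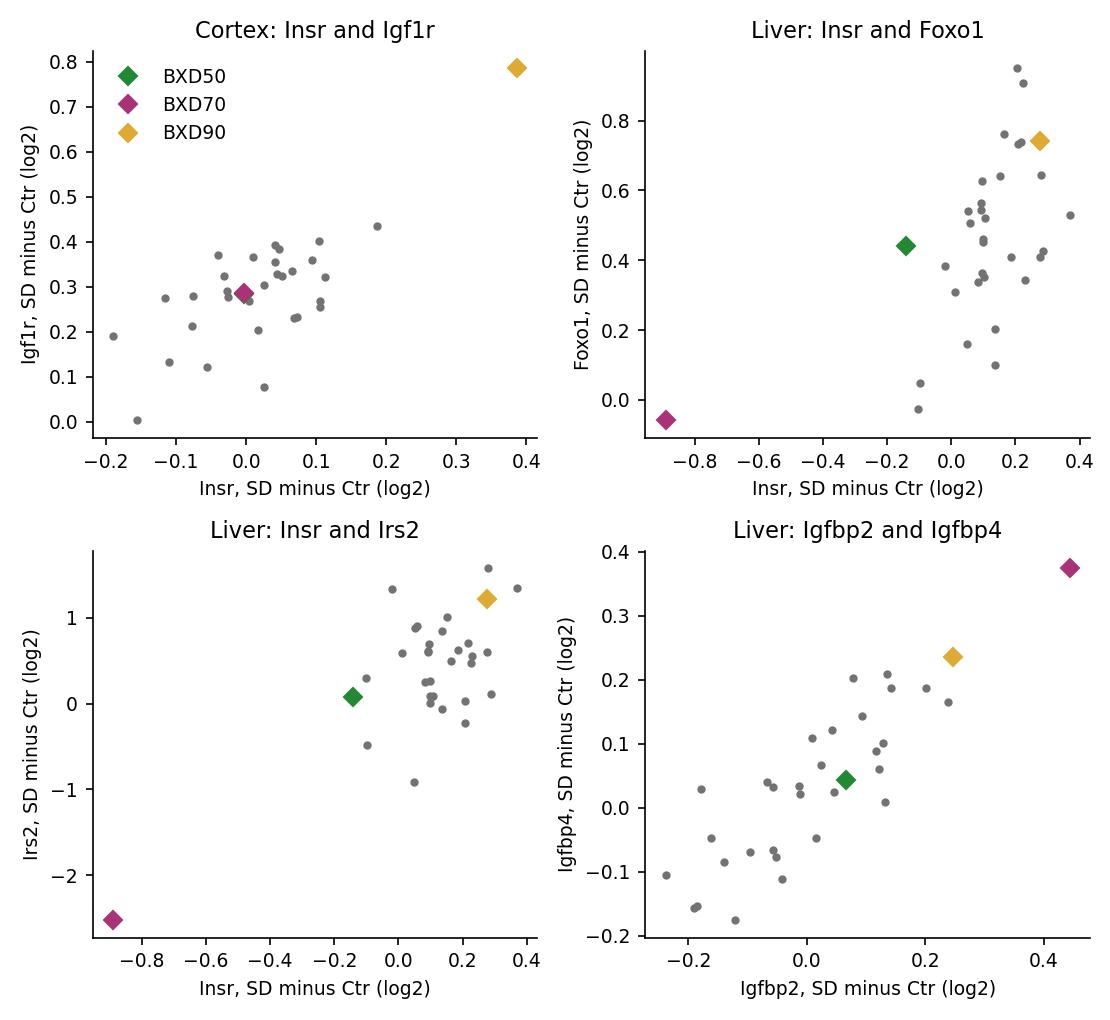
Changes with SD (log2 units on both axes) of 4 pairs of members over the 33 BXD/RwwJ lines, with BXD50, BXD70 and BXD90 marked. *Insr* and *Foxo1* in liver keep r = 0.54 without the 3 marked lines, whereas *Insr* and *Irs2* fall from 0.72 to 0.30.

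The change of a liver gene was also set against the change of the log2 library total over the 33 lines (19 relations, two-sided permutation, adjusted together). CPM has the scaled library total as its divisor, so reads that do not follow the total give a negative r by construction. These r values therefore restate the slopes above and are not separate evidence. *Igfbp4* followed the change of the total inversely (r = −0.96, permutation p = 1e-05, adjusted p = 9.5e-05; rho = −0.95; r = −0.94 without 2 lines). So did *Igfbp2* (r = −0.81, permutation p = 1e-05, adjusted p = 9.5e-05; rho = −0.75; r = −0.72 without 2 lines) and *Igf1* (r = −0.63, permutation p = 1e-04, adjusted p = 6.33e-04; rho = −0.65; r = −0.56 without 2 lines). *Irs1* (r = 0.58, permutation adjusted p = 0.00209) and *Insr* (r = 0.48, permutation adjusted p = 0.02) went the other way, at 0.31 and 0.072 without 2 lines. None of the 9 members passed in cortex (by permutation), where 1 had an unadjusted p under 0.05, *Igfbp4* (r = 0.37, permutation adjusted p = 0.0991).

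The gene whose change was most like that of each member was sought over 39 pools, among 12891 genes in cortex and 12105 in liver, as a description. The pools include BXD50, BXD70 and BXD90, which had libraries that stood apart. Values of r without them were not taken. For *Irs2* in cortex it was *Nr4a3*, an activity-induced nuclear receptor (r = 0.82; *Nr4a3* rose by 1.21), followed by *Fosl2* (0.82). For *Igfbp4* in cortex it was *Igfbp6* (0.77), another binding protein of the family. *Insr* was closest to *Tnrc6b* (0.88) and *Igf1r* to *Mkl2* (0.86), *Igf1* to *Rasa2* (0.77), *Irs1* to *Tbc1d8b* (0.66), *Igfbp2* to *Psmc5* (0.82) and *Igfbp5* to *Cdh18* (0.74).

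In liver *Igfbp4* was closest to *Rbp4*, the plasma retinol carrier (0.99), and *Igfbp2* to *Vkorc1* (0.91). *Insr* was closest to *Ncor1*, a nuclear corepressor (0.94), *Foxo1* to *4933426M11Rik* (0.92) and *Il6ra* (0.89), and *Igfbp1* to *Irf2bp2* (0.85) and *Zfp36* (0.77). The others were *Igf1* with *Serp1* (0.85), *Irs2* with *Dnmbp* (0.83), *Irs1* with *Smad3* (0.83), *Igfbp5* with *Sulf1* (0.75) and *Igf1r* with *Arhgap31* (0.70). These r values are across pools, which share libraries and depth, and no test was made. Single pools can weigh heavily in them. *Insr* in liver changed by −0.89 in BXD70, the next lowest change being −0.14.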

How the data were processed

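The authors pooled RNA within line, tissue and condition. Of the 172 libraries read here, 156 entered the main tests. Tissue, condition and line were taken from the labels. The values are log2 CPM as deposited. Per the study's methods, the libraries were stranded and sequenced from 1 end (Illumina HiSeq). STAR aligned the reads to mm9, and htseq-count assigned them to RefSeq genes. The authors left out genes with few reads, scaled the counts by TMM in edgeR and took log2 CPM. The labels also name FastQC. Whether identical reads were merged is not given in the sources used here. The versions of STAR, htseq-count and the authors' edgeR are not given in the sources used here. Undoing the scaling (mean prior count 0.995 to 1.001) returned 100% of values to whole reads (tolerance 0.02).

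SD and Ctr were compared with limma 3.58.1 in R 4.3.3 (lmFit, eBayes with a variance trend) on the log2 values, which takes the place of the voom weights the study names, with Benjamini-Hochberg adjustment over all genes listed in the tissue (threshold 0.05, no minimum fold change). Fold changes are on the scale of log2 CPM with that prior count and understate changes of genes with few reads. Replicates are lines, so the spread covers line and pool. Cortex and liver were normalized apart, so levels were not compared between them. For the difference between tissues, the cortex change of a pool was taken from its liver change, and limma was run on the result. Whether the libraries of a line belong together was checked on deviations from the condition means: the lowest correlation within a line was 0.299 in cortex and 0.169 in liver, with medians of 0.614 and 0.475, and medians of −0.0197 and −0.0180 between lines. The line is therefore a replicate block among the alternatives. Relations across lines were tested by permutation in NumPy 2.4.6 (Python 3.11.15), with ranks from SciPy 1.17.1. Coordinates and exonic lengths are from GENCODE vM1 on mm9, not the authors' gene models, and promoters from RefSeq on GRCm38, placed on mm9.

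Named are the 10 members in both tissues, up to 3 genes past the threshold with the largest change per list of pathway genes and tissue, and the genes most alike in change. Of the genes this rule named, 2 in cortex are not reported here. The members, lists and tests were chosen with earlier results of these data known. Alternatives were the replicate block, median-centred libraries, voom on the recovered reads, eBayes without a trend, a floor of 0 on the mean log2 CPM, log2(CPM + 1), all 43 pools, the 33 BXD/RwwJ lines, the pools without BXD79, BXD85 and BXD101, Ctr libraries alone for the strains, and each pool left out in turn. The library total as a covariate or in residuals, and leaving out the libraries that stood apart, were added after seeing the data. The limma code was tested on simulated data.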

Additional observations from a re-analysis of the deposited data

Results flagged for a closer look

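The response to SD differed between liver and cortex for 6 of the 9 members listed in both, by limma on the difference itself. Relative to cortex, the liver change was lower for *Igf1* (−0.35), *Irs2* (−0.56), *Igfbp4* (−0.19) and *Igfbp5* (−0.27), and higher for *Foxo1* (0.48) and *Insr* (0.093). Of all genes tested, 57.6% passed that test. Liver slopes of reads on the library total ran from 0.16 (*Igfbp4*) to 2.86 (*Irs2*) among these members. The part of these slopes in the differences was not tested.

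Among the 4 BXD/TyJ lines, 1 line lay far from the other 3 in 4 of 57 sets of values, where chance gives about 1 in 20. *Igf1r* in cortex was 6.18 log2 CPM in the Ctr library of BXD05, against 6.66 to 6.70 in the others. The change of *Irs2* in cortex was 1.71 in BXD05, against 0.91 to 0.99. *Igfbp1* in liver was 6.31 in the SD library of BXD29t, against 6.93 to 6.98. *Insr* in cortex was 6.48 in the SD library of BXD32, against 6.35 to 6.37.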

How the results depend on the processing

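The 6 members called in cortex numbered 6 under every alternative run, and the 7 called in liver numbered 6 to 9. With the line as a replicate block there were 6 in cortex and 8 in liver, and, apart from *Igf1* in liver, the block changed no other call of a member; nor did its absence in the difference between tissues. The gain to 9 came with the library total as a covariate, which added *Igf1* and *Igfbp4*, and the loss to 6 over the 33 lines was *Insr*. Pathway genes called numbered 45 in cortex (41 to 51) and 33 in liver (31 to 40). Of 109 relations across lines, 28 passed, and 8 without the 3 lines that stood apart. For D2 minus B6, 3804 genes passed in cortex and 2344 with the Ctr libraries alone, or 2398 to 3417 with 1 pool left out; in liver these were 2524, 1583 and 1433 to 1767.

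Sign changes concerned values that did not pass the threshold. The change of *Foxo1* in cortex was −0.0012 with median-centred libraries, −0.0012 over the 33 lines, −0.0023 without the libraries that stood apart, and −0.0037 to 0.010 with 1 pool left out. *Igfbp2* in liver was −0.0035 without those libraries, −0.0085 with the library total as a covariate, and −0.0016 to 0.020 with 1 pool left out. The *Irs1* change in liver minus cortex was 0.013 without those libraries. For D2 minus B6 in liver, *Igf1* (−0.047), *Igfbp4* (−0.029) and *Irs1* (0.0032) turned with the Ctr libraries alone, and *Igfbp2* (0.010) with median-centred libraries. In liver D2 minus B6 passed for *Igfbp1* and *Igfbp2* (−0.32, adjusted p = 0.00853) with the Ctr libraries alone, for *Foxo1* (0.28, adjusted p = 0.0448) with median-centred libraries and for *Igfbp5* (0.58, adjusted p = 0.0299) without D2 pool 2. With 1 pool left out, the strain difference ran from −0.047 to 0.054 for *Foxo1* and −0.12 to 0.074 for *Irs2* in cortex. In liver it ran from −0.034 to 0.10 for *Igf1*, −0.17 to 0.32 for *Igf1r*, −0.091 to 0.041 for *Igfbp2*, −0.12 to 0.041 for *Insr* and −0.14 to 0.052 for *Irs1*. The cause was not tested.

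Another scaling left the median of all genes within 0.1 of 0 on the log2 scale. Liver libraries held fewer reads than cortex libraries, and changes in *Igf1r*, *Sh2b2* and *Pik3ip1* rest on few reads there. In the dense liver genes *Igfbp2* (slope 0.014) and *Igfbp4* (0.16), reads hardly followed the library total.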
